A study of Mus musculus with 6 samples.

Results

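Gpx1, which encodes glutathione peroxidase 1, and 9 further enzymes of peroxide handling (Gpx3, Gpx4, Prdx1, Prdx5, Prdx6, Cat, Sod1, Sod2 and Txnrd1) were followed in RNA-seq of mouse alveolar macrophages, phagocytes that live in the air spaces of the lung. The 10 genes were chosen by symbol, with the knockout minus wild-type differences of these data already known, and all 10 were found among the 11789 genes of the deposited table. Their differences between the groups are therefore given as a description. The table holds 3 libraries labelled A20 conditional knockout (columns A20-1, A20-3 and A20-4) and 3 taken as wild type (columns BLM1, BLM2 and BLM3). Mice of both groups were C57BL/6 and shared an exposure abbreviated BLM in the labels and not spelled out there, so no unexposed animals are compared here. A20, the product of Tnfaip3, edits ubiquitin chains and restrains NF-kB signalling. Cre driver, deleted exons, dose, day of collection, age and the number of animals in a library are not stated in the labels. The p-values thus measure the spread between these libraries, part of which may be technical.

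Superoxide, which phagocytes make with the NADPH oxidase, is turned into hydrogen peroxide by superoxide dismutases. Hydrogen peroxide is then removed by catalase in peroxisomes, by glutathione peroxidases, which draw electrons from glutathione, and by peroxiredoxins, most of which draw them from thioredoxin. Thioredoxin is reduced again by thioredoxin reductase at the cost of NADPH. Alveolar macrophages meet both inhaled oxidants and their own oxidative burst, and many of these enzymes are known targets of the transcription factor NRF2.

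Of the 10 members, 4 are selenoproteins in the GENCODE M21 annotation, namely Gpx1, Gpx3, Gpx4 and Txnrd1. Each reads a TGA codon, usually a stop, as selenocysteine, the residue at the centre of catalysis. The coding sequences around that codon are shown to set Gpx1 beside the members with which it shares this chemistry. They come from GENCODE M21 transcripts on GRCm38, all plus strand, 5′ to 3′, with the selenocysteine codon in capitals.
Gpx1 (codon 47 of 202 with the stop, chr9:108339451-108339453): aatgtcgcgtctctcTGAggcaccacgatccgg
Gpx3 (codon 73 of 227, chr11:54907256-54907258): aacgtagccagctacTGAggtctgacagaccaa
Gpx4 (codon 73 of 198, chr10:80054737-80054739): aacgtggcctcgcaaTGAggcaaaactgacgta
Txnrd1 (codon 498 of 500, chr10:82896037-82896039): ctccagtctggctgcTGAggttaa
In the 3 glutathione peroxidases the codon lies well inside the reading frame, whereas in Txnrd1 only a glycine codon and the stop follow it.

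Expression is given as FPKM, fragments per kilobase of transcript, normalised to the mapped fragments of the library, which allows levels to be compared between genes. Differences (knockout minus wild type) are on a log2(FPKM + 1) scale, with a standard error from a limma fit over the 10696 genes that averaged 1 FPKM or more, and a gene is said to have risen or fallen only at a Benjamini-Hochberg adjusted p under 0.05. All 10 members were among the genes tested. The read depth of the libraries is unknown, and their summed FPKM ran from 266094 to 294525 per library. The targeted gene did not check the labels. Tnfaip3 had 8.44, 12.9 and 6.80 FPKM in the knockout libraries, against 4.47, 2.18 and 21.6 FPKM in wild type. Its log2 difference was 0.46 ± 0.69 (SE, limma adjusted p = 0.734), and whole-gene FPKM need not report an exon deletion. Directions are therefore between libraries as labelled. Library BLM3 stood apart, with Pearson correlations across genes of 0.925 and 0.913 with BLM1 and BLM2, against 0.982 between those 2 and 0.977 to 0.980 among the knockout libraries. All 12 fixed markers of alveolar macrophages were in the table, with summed FPKM of 5368 to 7747 in knockout and 3830 to 6760 in wild-type libraries, with 10 of the 12 higher in the knockout by fitted difference and a median log2 difference of 0.72, beside 0.02 over all genes tested. Of these markers Marco fell and 0 rose. At an unadjusted p under 0.05, 4 were higher and 2 lower (Marco and Fabp4), where 20.3% of all genes tested reached that p. Without BLM3 the markers' median was 0.26, beside 0.03 over all genes. In that setting Cidec (1.94) and Krt79 (2.09) rose and Marco (-2.01) fell. The part of these shifts in the members' values was not tested.

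Gpx1 (ENSMUSG00000063856.7, GRCm38 chr9:108338903-108340343, plus strand), the abundant cytosolic glutathione peroxidase, was the 1 member that rose in the knockout libraries. The knockout libraries A20-1, A20-3 and A20-4 held Gpx1 at 270.1, 273 and 219.7 FPKM, against 69.4, 80.5 and 45.8 FPKM in the wild-type libraries BLM1, BLM2 and BLM3. Every knockout value lay above every wild-type value, and the lowest wild-type library was BLM3. The means were 254 ± 30.0 FPKM in knockout and 65.2 ± 17.7 FPKM in wild-type libraries (SD, n = 3 each), a ratio of 3.90, or 1.98 ± 0.22 on the log2 scale (SE, limma adjusted p = 0.0240). Leaving out BLM3 gave 1.75 ± 0.14 (SE, limma adjusted p = 0.00864). The call ended without A20-1, A20-3, A20-4 or BLM1, with limma adjusted p of 0.0844, 0.124, 0.0848 and 0.0875, while the differences stayed between 1.92 and 2.08. No other annotated gene overlaps the Gpx1 locus in GENCODE M21.

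Of the 10 members, 1 rose and 0 fell in this fit. Over all genes tested, 27 rose (0.252%) and 91 fell (0.851%), and with values rescaled to TPM 41 rose and 64 fell, so that rises made up 39.0% of the calls against 22.9% as deposited. Nothing is read from the members' count, because they were chosen with this comparison known. Without BLM3, 1 member rose (Gpx1) and 1 fell (Gpx3), where 144 genes (1.35%) rose and 267 (2.5%) fell over all genes. These counts depended on single libraries. Over all genes there were 11 rises and 24 falls without A20-1, 0 and 14 without A20-4, 0 and 4 without BLM1, and 16 and 76 without BLM2. Without A20-3 limma called 0 genes, with 1694 at an unadjusted p under 0.05. At an unadjusted p under 0.05 with all 6 libraries stood 4 members, Gpx1 with the higher and Gpx3, Gpx4 and Prdx1 with the lower level in the knockout, beside 2172 (20.3%) of all genes tested. With limma's array weights, which let libraries count unequally, these last 3 passed the threshold, where 942 genes (8.81%) rose and 992 (9.27%) fell over all genes.

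By values alone, 1 member (Gpx1) had all knockout libraries above all wild-type libraries, as did 15.9% of genes tested. In 6 members (Gpx3, Gpx4, Prdx1, Prdx5, Sod1 and Sod2) all knockout libraries lay below, as in 13.1% of genes tested, and in 3 (Prdx6, Cat and Txnrd1) the groups overlapped. Differences were negative in 8 members, although that of Txnrd1 turned positive under TPM scaling (0.01). The median log2 difference was -0.34 over the members and -0.37 over the 9 without Gpx1, beside 0.02 over all genes tested. Without BLM3 the members' median was -0.18, beside 0.03 over all genes.

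**Figure D1:**
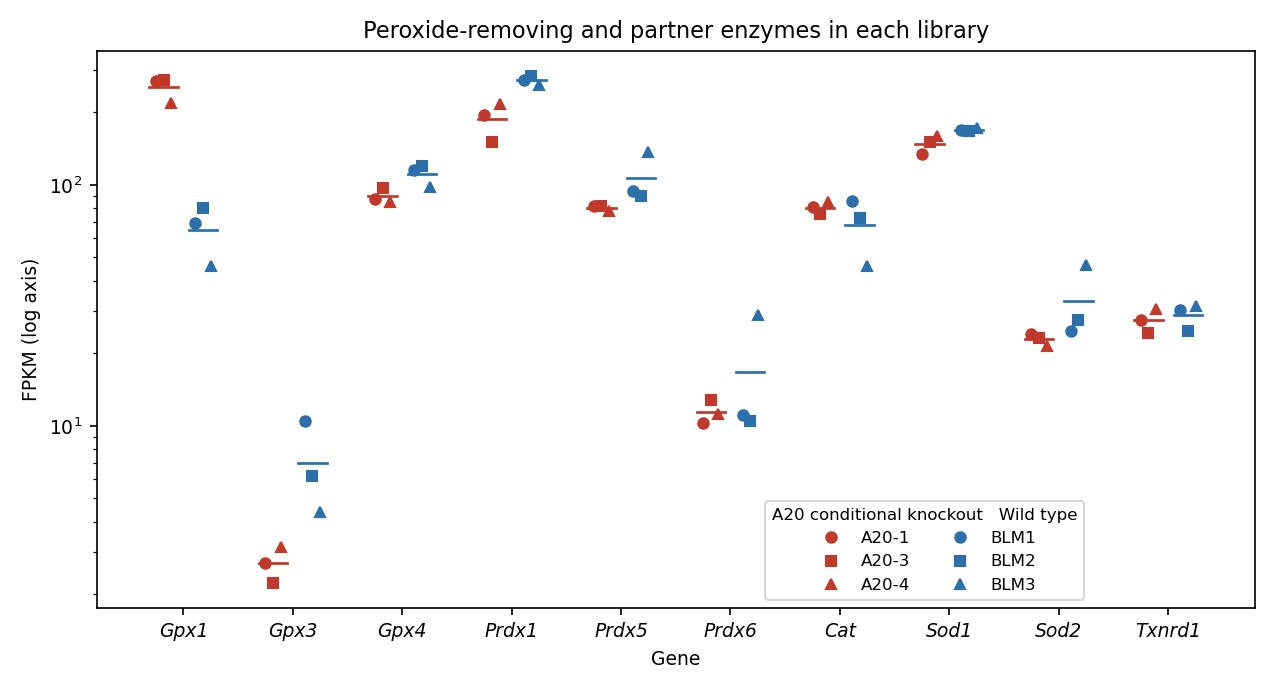
FPKM of the 10 enzymes on a log axis in the 3 A20 conditional knockout libraries (red, left of each gene) and the 3 wild-type libraries (blue, right), 1 symbol per library, with the group mean as a line. Gpx1 is the only one of the 10 whose knockout values (219.7 to 273 FPKM) all lie above the wild-type values (45.8 to 80.5 FPKM).

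The remaining glutathione peroxidases did not share the direction of Gpx1. Gpx3 (ENSMUSG00000018339.11, chr11:54902453-54910377, plus strand), the secreted form found in plasma, had 2.70, 2.24 and 3.15 FPKM in the knockout libraries, against 10.4, 6.21 and 4.37 FPKM in BLM1, BLM2 and BLM3. The groups did not overlap, and the wild-type libraries spread 2.39-fold from lowest to highest. Its log2 difference was -1.05 ± 0.28 (SE, limma adjusted p = 0.118) with 6 libraries and -1.30 ± 0.22 without BLM3 (adjusted p = 0.0344). Gpx4 (ENSMUSG00000075706.10, chr10:80047166-80056439, plus strand), which reduces lipid hydroperoxides in membranes and guards against ferroptosis, had 87.7, 96.8 and 84.6 FPKM in the knockout libraries, against 115.2, 119.9 and 97.8 FPKM in wild type. The highest knockout and the lowest wild-type value were only about 1 FPKM apart, and the log2 difference was -0.30 ± 0.12 (SE, limma adjusted p = 0.232). Within each library, Gpx1 stood at 3.08, 2.82 and 2.60 times the FPKM of Gpx4 in A20-1, A20-3 and A20-4, against 0.602, 0.671 and 0.469 times in BLM1, BLM2 and BLM3. These ratios do not depend on the scaling of a library.

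Among the peroxiredoxins, Prdx1 (ENSMUSG00000028691.12, chr4:116685544-116700822, plus strand), an abundant cytosolic enzyme, had 194.8, 150.9 and 217.4 FPKM in the knockout libraries, against 273, 282.9 and 259.7 FPKM in wild type. The groups did not overlap, and here the knockout libraries spread more, 1.44-fold against 1.09-fold in wild type. The log2 difference of Prdx1 was -0.55 ± 0.16 (SE, limma adjusted p = 0.133), and -0.58 without BLM3. Prdx5 (ENSMUSG00000024953.16, chr19:6906697-6910106, minus strand), found in mitochondria, peroxisomes and cytosol, had 81.5, 81.7 and 78.2 FPKM in the knockout libraries, against 94.5, 89.8 and 137.3 FPKM in BLM1, BLM2 and BLM3. Its difference of -0.38 ± 0.17 (SE, adjusted p = 0.275) was -0.19 without BLM3. The locus of Prdx5 overlaps Trmt112 on the other strand, and the use of strand in counting is not given in the sources used here. Prdx6 (ENSMUSG00000026701.15, chr1:161240112-161251219, minus strand), a peroxiredoxin that works with glutathione and also has phospholipase activity, had 10.3, 12.8 and 11.2 FPKM in the knockout libraries, against 11.1, 10.5 and 28.7 FPKM in wild type. The groups overlapped, with BLM3 alone high, and the log2 difference was -0.37 ± 0.36 with 6 libraries and 0.08 ± 0.12 without BLM3 (SE), the first with limma adjusted p = 0.594.

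Catalase, encoded by Cat (ENSMUSG00000027187.10, chr2:103453849-103485160, minus strand), had 81.0, 75.7 and 84.9 FPKM in the knockout libraries, against 85.7, 73.1 and 46.0 FPKM in wild type. BLM1 lay just above the knockout range and BLM2 just below it, and BLM3 was low. The log2 difference was 0.28 ± 0.23 (SE, limma adjusted p = 0.514), and 0.02 ± 0.11 without BLM3.

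The cytosolic superoxide dismutase gene Sod1 (ENSMUSG00000022982.9, chr16:90220742-90226322, plus strand) had the narrowest spread of the 10 in wild type, 1.03-fold from lowest to highest. It had 134.1, 151.1 and 160.2 FPKM in the knockout libraries, against 168.7, 167.8 and 172.1 FPKM in wild type, or -0.19 ± 0.11 on the log2 scale (SE, limma adjusted p = 0.356). Its annotated locus overlaps Scaf4 on the other strand. The mitochondrial dismutase gene Sod2 (ENSMUSG00000006818.4, chr17:13007839-13018119, plus strand), a textbook NF-kB target, had 24.2, 23.0 and 21.5 FPKM in the knockout libraries, against 24.6, 27.4 and 46.5 FPKM in wild type. BLM1 was less than 1 FPKM above the highest knockout library, and BLM3 stood well above all others. The difference of Sod2 was -0.45 ± 0.23 (SE, adjusted p = 0.325) with 6 libraries and -0.18 ± 0.11 without BLM3 (adjusted p = 0.358).

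Txnrd1 (ENSMUSG00000020250.10, chr10:82833951-82897712, plus strand), the cytosolic thioredoxin reductase, showed no difference beyond its spread. It had 27.5, 24.3 and 30.6 FPKM in the knockout libraries, against 30.2, 24.8 and 31.5 FPKM in wild type, or -0.07 ± 0.14 on the log2 scale (SE, limma adjusted p = 0.806). The ranges of the groups overlapped almost entirely. Eid3 lies on the same strand within the Txnrd1 locus, so reads of these 2 genes could be split.

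**Figure D2:**
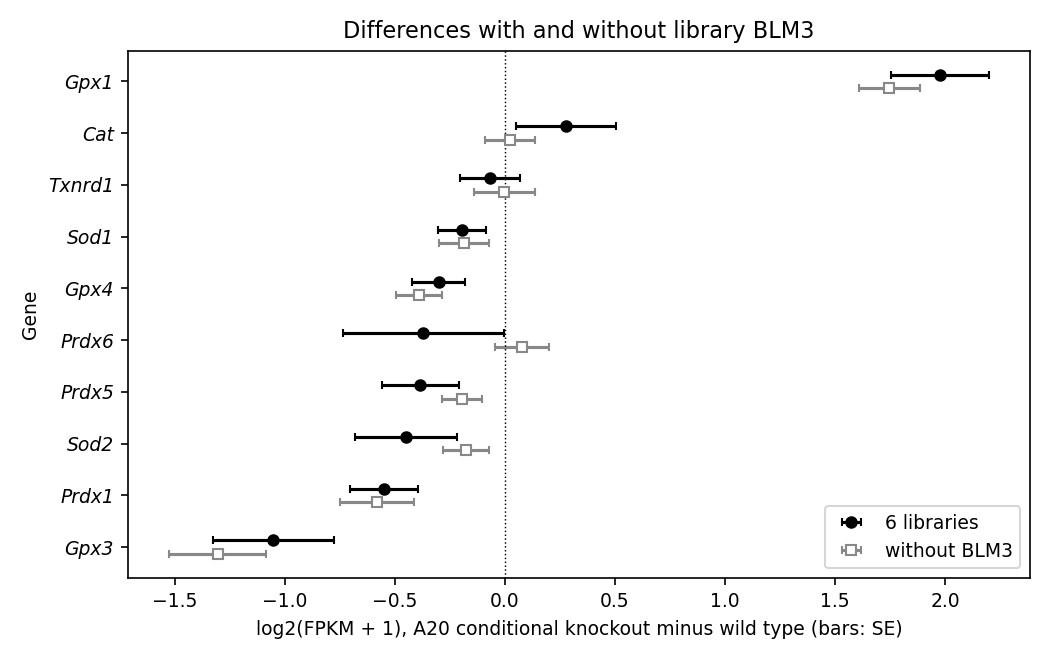
Log2(FPKM + 1) differences, A20 conditional knockout minus wild type, of the 10 enzymes with SE bars, for all 6 libraries (filled circles) and without BLM3 (open squares). Gpx1 stays near 2 (1.98 and 1.75), whereas the differences of Cat (0.28 and 0.02) and Prdx6 (-0.37 and 0.08) come to near 0 without BLM3.

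Library BLM3 moved members in both directions relative to BLM1 and BLM2. On the log2 scale it lay above their mean by 1.34 for Prdx6, 0.81 for Sod2 and 0.57 for Prdx5, and its differences from their mean were -0.77 for Cat, -0.76 for Gpx3 and -0.69 for Gpx1. Sod1 and Prdx1 differed little there, at 0.03 and -0.10. The sum of neutrophil markers moved with this library. The 8 of 12 fixed markers present in the table summed to 113.8 to 156.5 FPKM in the knockout libraries and to 148.5 FPKM in BLM1, 161.8 FPKM in BLM2 and 2799 FPKM in BLM3. Of these, Ly6g was listed at 0 in 4 libraries and reached 2.25 FPKM in BLM3, and Camp, Ngp, Mpo and Elane had no row. Most of the BLM3 sum came from S100a9 (1535 FPKM) and S100a8 (861 FPKM). Mmp8 and Ltf, at 32.2 and 28.9 FPKM in BLM3, were highest in A20-3 (41.7 FPKM) and A20-1 (35.5 FPKM). Without BLM3, S100a8 fell (-1.25, limma adjusted p = 0.0185) and Ltf rose (1.25, adjusted p = 0.0471). The part of neutrophil RNA in the BLM3 values of Prdx6, Sod2 and Prdx5 was not tested. In bulk RNA, fewer cells of a type and less RNA per cell cannot be told apart.

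The summed FPKM of some marker lists of other cells also differed between the groups. The 9 fixed markers of recruited macrophages and monocytes with a row, held by 10 gene IDs, summed to 264 to 414 FPKM in knockout and 1136 to 1321 FPKM in wild-type libraries. Among them C1qa, C1qb and C1qc, the chains of complement C1q, fell, and 0 rose. The 12 markers of lung epithelium summed to 326 to 439 FPKM in knockout and 82.1 to 240.6 FPKM in wild-type libraries, with 0 of 11 tested called by limma and 5 at an unadjusted p under 0.05 (3 higher, 2 lower in the knockout), where 20.3% of all genes tested reached that p. Scgb1a1 alone had 291.5, 216.8 and 111.6 FPKM in A20-1, A20-3 and A20-4, against 66.6, 111.4 and 23.1 FPKM in BLM1, BLM2 and BLM3. The 2 lower were Krt8 (-1.08) and Krt18 (-1.49), and without BLM3 both fell. The part of either cell source in the Gpx1 difference was not tested. Red cells hold much glutathione peroxidase and catalase, and 5 of 10 erythroid markers were in the table, with 188 to 3551 FPKM summed in knockout and 317 to 2484 FPKM in wild-type libraries. Their part in the Gpx1 and Cat values was not tested. Markers of fibroblasts and endothelium were low, with 3 of 10 in the table and sums of 2.32 to 5.63 FPKM in knockout and 3.47 to 7.60 FPKM in wild type.

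The make-up of the 10 transcripts differed more between the groups than their sum. Together the 10 reached 913.7, 891.5 and 911.5 FPKM in the knockout libraries, against 882.9, 883 and 869.9 FPKM in wild type. Without Gpx1 it was 643.6, 618.5 and 691.7 FPKM in the knockout libraries, against 813.5, 802.5 and 824 FPKM in wild type. Gpx1 made up 28.1% ± 3.50 of the sum in knockout and 7.41% ± 1.96 in wild-type libraries (SD, n = 3 each). The share of Prdx1 was 20.7% ± 3.50 in knockout and 30.9% ± 1.09 in wild-type libraries. These shares add to 100, so a higher share of Gpx1 lowers the others by construction.

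**Figure D3:**
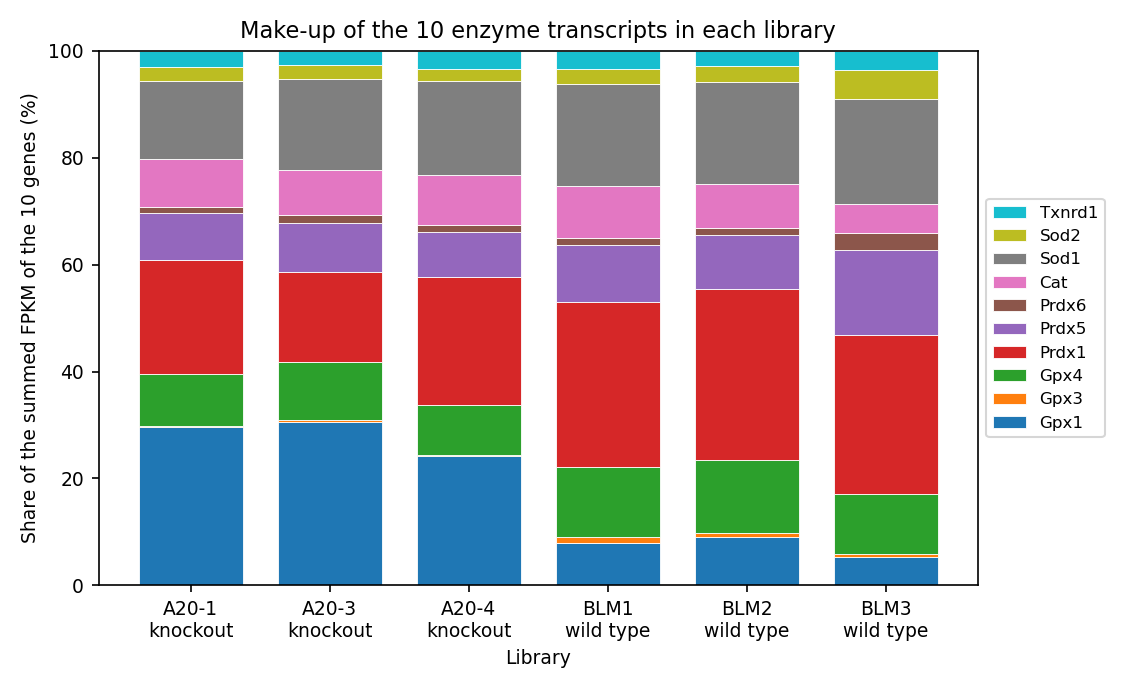
Share of the summed FPKM of the 10 enzymes, in percent, in each of the 3 A20 conditional knockout libraries (left) and the 3 wild-type libraries (right). The Gpx1 segment is 24.1% to 30.6% in the knockout libraries and 5.27% to 9.12% in wild type.

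The order of levels changed with it. In all 3 knockout libraries Gpx1 ranked 1 among the 10, at places 103 to 129 among the 11789 genes of the table. In wild type it ranked 5 to 7, at places 512 to 973, and Prdx1 was the highest member in each library. In the knockout libraries the mean order was Gpx1, Prdx1, Sod1, Gpx4, Cat, Prdx5, Txnrd1, Sod2, Prdx6 and Gpx3. Ranges overlapped between Prdx1 and Sod1, between Gpx4 and Cat, and between Cat and Prdx5, so these neighbours were not separated beyond their spread. In wild type the mean order was Prdx1, Sod1, Gpx4, Prdx5, Cat, Gpx1, Sod2, Txnrd1, Prdx6 and Gpx3, with overlap between Gpx4 and Prdx5 and between each pair of neighbours from Cat to Prdx6. Gpx1 and Prdx1 were close in A20-4, with a ratio of 1.01, against 1.39 in A20-1 and 1.81 in A20-3, while the wild-type ratios were 0.254, 0.284 and 0.177.

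The profile of Gpx1 over the libraries was set against those of other genes. Likeness was measured as the root mean square distance between log2(FPKM + 1) profiles over the 6 libraries, each centred on its own mean. The nearest member was Cat at 0.87, and the others lay between 1.09 (Txnrd1) and 1.55 (Gpx3). Among 4394 genes averaging 10 FPKM or more, the 5 nearest outside the members were Kcna3 (0.31), a potassium channel gene, Slc6a4 (0.34), the serotonin transporter, Fabp1 (0.34), a fatty acid binding protein, Hsd3b7 (0.34), an enzyme of bile acid synthesis, and Fpr1 (0.36), a formyl peptide receptor. Kcna3 had 60.0, 44.7 and 49.1 FPKM in the knockout libraries, against 18.2, 24.2 and 13.5 FPKM in wild type. As with Gpx1, BLM3 was the lowest library for all 5. They were picked for resembling Gpx1, so their own differences are no further evidence.

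The surrounding redox genes were read from 8 lists of 143 genes, of which 122 were tested. With limma 0 of the 122 rose and 0 fell, while 23 had an unadjusted p under 0.05 (7 higher, 16 lower in the knockout), or 18.9% against 20.3% of all genes tested. Without BLM3, 2 rose (Txnip and Acaa1b) and 4 fell (Srxn1, Me1, Ephx1 and Slc48a1), of which Ephx1 and Slc48a1 are named after their values were seen. With array weights 5 rose and 16 fell among the 122, beside 942 and 992 of the 10696 genes tested. The differences in the 8 lists ran from -1.52 (Osgin1) to 1.24 (Acaa1b). Gpx1 lay outside that range, but it was chosen with its difference known, so nothing is read from this.

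Of 9 further glutathione peroxidase, peroxiredoxin and superoxide dismutase genes, 3 were tested and 0 were called (1 at an unadjusted p under 0.05), with a median log2 difference of -0.13. Prdx4, the peroxiredoxin of the endoplasmic reticulum, averaged 9.70 ± 0.234 FPKM in knockout and 13.6 ± 2.61 FPKM in wild-type libraries (SD, n = 3 each, limma adjusted p = 0.171). Mitochondrial Prdx3 and cytosolic Prdx2 had log2 differences of -0.13 and -0.10. Gpx2, Gpx8 and Sod3 stayed below the minimum mean of 1 FPKM.

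Of 18 thioredoxin and glutaredoxin partners tested, 0 were called and 5 had an unadjusted p under 0.05 (1 higher, 4 lower). Srxn1, sulfiredoxin, which repairs overoxidised peroxiredoxins, had 19.6, 17.1 and 18.0 FPKM in the knockout libraries, against 38.2, 28.0 and 33.5 FPKM in wild type. The groups did not overlap, and Srxn1 differed by -0.82 ± 0.14 on the log2 scale (SE, limma adjusted p = 0.0537). That p became 0.0495 without BLM2 and 0.0435 without BLM3. Txnip, the thioredoxin-binding inhibitor, went the other way, with 174.3, 224.7 and 238.5 FPKM in the knockout libraries, against 116.6, 115.9 and 85.4 FPKM in wild type (log2 difference 1.00 ± 0.18, SE, adjusted p = 0.0632, or 0.0394 without BLM3). Sesn1, a stress-induced sestrin, differed by -0.57 ± 0.14 (SE, adjusted p = 0.111). The list's median was -0.13.

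Genes of glutathione and NADPH supply had a median of 0.07, with 0 of 19 called and 3 at an unadjusted p under 0.05. These 3 were Me1, malic enzyme, at -0.49 ± 0.17 (SE, limma adjusted p = 0.190, or 0.0498 without BLM3), the NAD kinase gene Nadk at 0.29 ± 0.11 (adjusted p = 0.206) and Gclc, the catalytic subunit of glutamate-cysteine ligase, at -0.43 ± 0.17 (adjusted p = 0.213). NRF2 regulators and targets had a median of -0.10, with 0 of 21 called and 7 at an unadjusted p under 0.05 (1 higher, 6 lower). Nqo1, the quinone reductase often used as an NRF2 readout, had 2.22, 1.56 and 1.62 FPKM in the knockout libraries, against 4.42, 3.10 and 4.78 FPKM in wild type (log2 difference -0.86 ± 0.17, SE, limma adjusted p = 0.0785). Bach1, a repressor of NRF2 target genes, had a log2 difference of 0.48 ± 0.13 (SE, adjusted p = 0.118), and Blvrb, biliverdin reductase B, one of -0.48 ± 0.14 (SE, adjusted p = 0.131).

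The selenoprotein genes other than the members did not move as Gpx1 did. Of 13 tested, 0 were called and 3 had an unadjusted p under 0.05, with a median log2 difference of -0.11. Those 3 were Selenow at -0.45 ± 0.13, Selenoi at 0.87 ± 0.27 and Selenom at -0.68 ± 0.25 (SE, limma adjusted p = 0.136, 0.158 and 0.199). The 9 tested genes of selenocysteine insertion and selenium supply summed together with Pstk to 78.6 to 85.6 FPKM in knockout and 78.1 to 78.9 FPKM in wild-type libraries. Of these sums, Sars, a seryl-tRNA synthetase not particular to selenoproteins, made up 22.7 to 27.5 FPKM in knockout and 22.4 to 25.2 FPKM in wild-type libraries. Differences in the list lay between -0.19 (Scly) and 0.25 (Secisbp2l), with 0 called and 0 at an unadjusted p under 0.05.

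The list for NADPH oxidase, the source of superoxide in phagocytes, had 0 of 9 called and 1 at an unadjusted p under 0.05, with a median of -0.16. This count and median include 1810037I17Rik (-0.07), a gene whose symbol names no part of the oxidase. The gene at that p was Cyba, a membrane subunit, with 403, 433 and 437 FPKM in the knockout libraries, against 492, 557 and 566 FPKM in wild type (log2 difference -0.34 ± 0.11, SE, limma adjusted p = 0.178). Ncf4, a cytosolic subunit, had -0.52 ± 0.22 and Rap1a, a small GTPase, -0.22 ± 0.12 (SE, adjusted p = 0.250 and 0.351). Peroxisome genes, which include the import machinery for catalase, had 0 of 30 called and 3 at an unadjusted p under 0.05, with a median of 0.06. Those 3 were Acaa1b, a peroxisomal thiolase, which averaged 14.6 ± 2.45 FPKM in knockout and 5.89 ± 2.52 FPKM in wild-type libraries (SD, n = 3 each), the transporter Abcd2 and the import factor Pex6. Their log2 differences were 1.24 ± 0.30, 0.65 ± 0.26 and 0.34 ± 0.14 (SE, limma adjusted p = 0.106, 0.224 and 0.245).

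**Figure D4:**
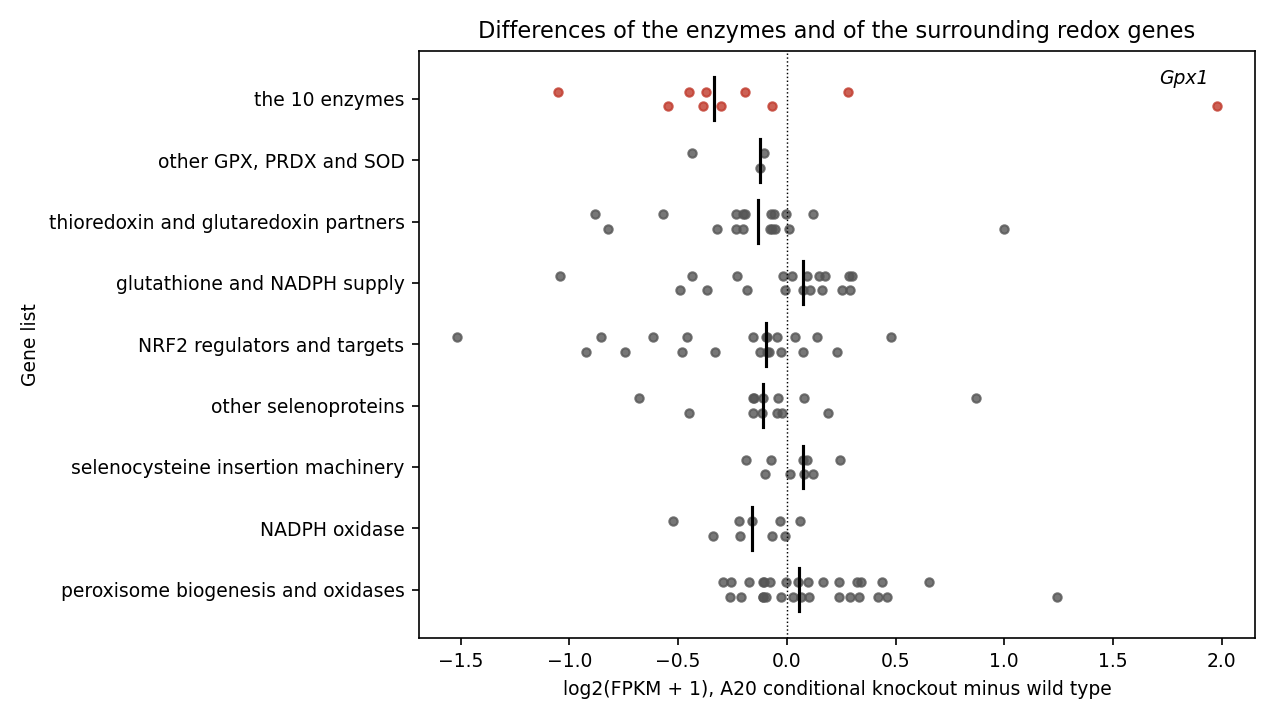
Log2(FPKM + 1) differences, A20 conditional knockout minus wild type, of each tested gene among the 10 enzymes (red) and in the 8 lists of surrounding redox genes (grey), with each list's median as a black line. Gpx1, at 1.98, lies to the right of all other genes plotted, the next being Acaa1b at 1.24.

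Promoter sequences from RefSeq (GRCm38.p6, 250 bases before and 50 after a transcript start) were found for 9 of the 10 genes, with 14 starts in all. The 250 bases before the Gpx1 start are shown, as the member that rose, at chr9:108338830-108339079, plus strand, 5′ to 3′, with 42.0% G and C.
Gpx1: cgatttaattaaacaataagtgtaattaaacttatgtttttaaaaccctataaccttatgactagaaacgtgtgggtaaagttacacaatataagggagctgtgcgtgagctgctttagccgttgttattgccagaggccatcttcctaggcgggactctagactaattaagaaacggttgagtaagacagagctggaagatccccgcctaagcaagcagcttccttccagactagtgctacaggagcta
The RefSeq start lies inside the locus given above from the table. Neither TGACNNNGC, the core of the antioxidant response element bound by NRF2, nor TGANTCA, an AP-1 site, was found on either strand of the Gpx1 window (250 bases before and 50 after the start). The first was found in 1 start each of Prdx1, Txnrd1 and Sod1, as in 12.4% of 32851 RefSeq starts. The second was found in Prdx1 only, as in 7.81% of starts. The matches to the first motif are shown with their flanks, plus strand, with the match in capitals, which reads in the opposite direction in all 3.
Prdx1 (chr4:116685446-116685494): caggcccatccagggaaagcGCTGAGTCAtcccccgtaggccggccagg
Txnrd1 (chr10:82859094-82859142): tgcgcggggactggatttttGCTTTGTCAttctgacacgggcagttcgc
Sod1 (chr16:90220686-90220734): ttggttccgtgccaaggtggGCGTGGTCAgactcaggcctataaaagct
The Prdx1 match also contains a TGANTCA match. These are descriptions of letters in these windows, and the 3 genes that hold the first motif had log2 differences of -0.55, -0.07 and -0.19.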

How the data were processed

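RNA-seq was measured in 6 libraries of alveolar macrophages, 3 per group. The values are FPKM per gene, as deposited by the authors and named so per the file headers. Per the labels' protocols, total RNA was made into libraries with a stranded KAPA kit. Per the submitters' processing notes, reads were placed on GRCm38. Aligner, quantifier, annotation release and strand setting were not given in the sources used here. Low values showed no steps from which reads could be recovered, so depth stays unknown and counting intervals cannot be given. Columns were assigned to groups by name, with columns named for A20 taken as knockout and those named BLM alone as wild type, and column numbers do not match those in the sample titles.

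The 10696 of 11789 genes that averaged 1 FPKM or more were compared as log2(FPKM + 1), a pseudocount of 1 that understates changes of low genes, with limma 3.58.1 in R 4.3.3 (eBayes with trend), two-sided, and p-values were adjusted over all tested genes (Benjamini-Hochberg). The fit was run on simulated data with independent normal noise for each gene and no outlying library. That run therefore does not cover a library that stands apart, such as BLM3. Members and lists were chosen with earlier results of these data known. The named genes are the members, Tnfaip3, 3 genes per list by smallest p, and the 5 profiles nearest to Gpx1. Other genes, among them some cell type markers, Osgin1, Ephx1, Slc48a1, Hba-a1, Alas2 and Cd79a, were chosen after their values were seen. Sequences are from GENCODE M21 and RefSeq. Alternatives were pseudocounts of 0.1, 0.5 and 5, no minimum or a minimum of 5 FPKM, TPM, quantile normalization, array weights, no trend, and each library left out.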

Additional observations from a re-analysis of the deposited data

How the results depend on the processing

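The Gpx1 difference was positive in every setting tried and ran from 1.75 (without BLM3) to 2.15 (without BLM2) when single libraries were left out. Its call was lost without A20-1, A20-3, A20-4 or BLM1, and kept in the 9 other settings that used all libraries and without BLM2 or BLM3. Over all genes limma called 17 rises and 58 falls with a minimum mean of 5 FPKM, which dropped Gpx3, 41 rises with TPM, and 942 rises and 992 falls with array weights, and 0 to 144 rises and 0 to 267 falls with 1 library left out. The count of members that rose was 0 to 1 and that of members that fell 0 to 1 with 1 library left out, and 3 fell with array weights. For the 8 redox lists together these ranges were 0 to 2 and 0 to 4, with 5 rises and 16 falls under array weights. The median difference of the members was -0.30 with a pseudocount of 5, -0.26 with TPM, -0.27 with quantile normalization, -0.17 with array weights, and -0.38 to -0.18 with 1 library left out. Among the members, Tnfaip3 and the other genes named by the rule, signs turned in Prdx6 (0.0033 with array weights, and -0.610 to 0.0762 with 1 library left out), Cat (-0.0293 with array weights), Txnrd1 (0.0138 with TPM, and -0.168 to 0.0147 with 1 library left out) and Tnfaip3 (-0.141 to 1.27 with 1 library left out). The median of the glutathione and NADPH list was -0.0219 without BLM3, and that of the peroxisome list -0.00161 without BLM3 and -0.0262 with array weights, both positive with all libraries weighted equally. Some list genes not named here also turned sign without BLM3. The causes were not tested. No paired analysis was possible because the table's columns do not carry the replicate numbers of the sample titles. With 3 libraries per group and unknown depth, a difference that missed the threshold is not shown to be absent.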

Other observations

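Transcripts of other blood cells varied between libraries. Haemoglobin genes were present throughout. The genes named here were chosen after their values were seen. Hba-a1, an alpha globin gene, had 55.1, 886 and 242 FPKM in A20-1, A20-3 and A20-4, and 234, 97.7 and 614 FPKM in BLM1, BLM2 and BLM3. Alas2, the erythroid enzyme that starts heme synthesis, had its highest levels in the same libraries, with 13.7 FPKM in A20-3 and 10.1 FPKM in BLM3. T and B cell markers, with 9 of 10 in the table, summed to 97.0 to 102.2 FPKM in knockout and 61.2 to 241 FPKM in wild-type libraries. With all 6 libraries, 0 of 9 were called by limma and 0 were at an unadjusted p under 0.05. Without BLM3, Cd8a rose (log2 difference 1.22, limma adjusted p = 0.0273) and 0 fell. Cd8a had 23.5, 32.5 and 36.1 FPKM in A20-1, A20-3 and A20-4, and 12.5, 12.3 and 38.8 FPKM in BLM1, BLM2 and BLM3. B cell transcripts stood out in BLM1 and BLM3. Cd79a, a chain of the B cell receptor complex, had 8.54, 5.95 and 5.10 FPKM in A20-1, A20-3 and A20-4, and 36.7, 4.43 and 34.4 FPKM in BLM1, BLM2 and BLM3.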
